A study of Mus musculus with 9 samples.

Results

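The genes measured here encode the subunits of the mitochondrial respiratory chain and of the ATP synthase it drives, in mouse embryonic stem (ES) cells. Members were chosen by gene symbol. The rule took the Nduf subunit names of complex I, Sdha to Sdhd of complex II, the Uqcr names of complex III, the Cox names of complex IV that carry the digits 4 to 8, the Atp5 names of complex V and the protein-coding genes of mitochondrial DNA. Names containing "-ps" were left out, and at least 200 counts summed over the 9 libraries were required. Of 52636 genes in the table, 86 met the rule, 79 of them nuclear and 7 mitochondrially encoded. The nuclear members comprised 34 genes of complex I, 4 of complex II, 8 of complex III, 16 of complex IV and 17 of complex V. Ndufa4 carries a complex I name but its protein sits in complex IV, and it was counted there together with its relative Ndufa4l2. The mitochondrially encoded members were mt-Nd1, mt-Nd2, mt-Nd4, mt-Nd5 and mt-Nd6 of complex I, mt-Cytb of complex III and mt-Co1 of complex IV. All 86 members passed the low-count filter of the test. Those just inside the minimum were Cox4i2 with 277 counts over the 9 libraries and Ndufb4 with 852.

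A further 23 genes matched the names but were not members. Of these, 8 nuclear genes had "-ps" in the symbol, 9 nuclear genes had fewer than 200 counts and 6 mitochondrially encoded genes had 0 or 1 count over all 9 libraries. Just outside the minimum were Ndufs5 with 130 counts and Cox7b2, a testis form, with 119. The muscle forms Cox6a2 and Cox8b had 7 and 8 counts, and Cox8c, the third Cox8 gene, had 36. Among the excluded "-ps" names, Ndufb1-ps stood apart with 5325 counts.

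Complexes I to IV pass electrons from NADH and succinate to oxygen, and complexes I, III and IV pump protons as they do so. Complex V lets the protons back across the inner membrane and makes ATP. Every complex except II combines subunits made in the cytosol from nuclear genes with subunits encoded by mitochondrial DNA, which is transcribed from both strands as long precursors that are cut into single messengers. ES cells in the naive state use respiration alongside glycolysis, and Esrrb, one of the genes altered here, encodes an estrogen-related receptor, a family known to bind promoters of respiratory genes in tissues such as heart.

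The study compared 3 ES cell lines with 3 libraries each. The line labelled NanogKO (44C6), genotype N{delta}, is called the Nanog-null line. The line labelled NanogKO:Esrrb (44J) is called the Esrrb line, and that labelled NanogKO:Esrrb:Nanog (44JN) the Esrrb+Nanog line. Both of these carry the genotype label N{delta}:cE:iN, so only their titles tell them apart. All 3 lines share the Nanog knockout, growth in medium with serum and leukaemia inhibitory factor without treatment, and sorting for cells positive for PECAM and negative for PDGFRA. Total RNA was sequenced after ribosomal RNA depletion. Because every condition rests on 1 line, effects of an added gene and of line history cannot be told apart. Whether the replicates were grown separately is not stated, and p-values here reflect only the spread between libraries, which may be technical.

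Libraries held 21808120 to 32496267 counts. Esrrb was at 253 to 303 CPM (counts scaled to a common library total) in the Nanog-null libraries, and at 692 to 949 and 1056 to 1151 CPM with Esrrb and with Esrrb+Nanog, and Nanog was at 14.3 to 16, 29.7 to 35.1 and 221 to 333 CPM. Reads on Nanog in the knockout do not check the deletion, whose extent is not stated. All 8 ES cell markers examined were above 1 CPM in every line, with a summed level of 4105 to 4367 CPM in the Nanog-null, 5937 to 6205 in the Esrrb and 4981 to 5486 in the Esrrb+Nanog libraries. Summed levels of primitive endoderm and trophoblast markers were highest in the Nanog-null line, while those of fibroblast or feeder markers overlapped between lines. The 9 primitive endoderm markers gave 266 to 405 CPM there against 113 to 146 and 92.9 to 143, with Foxa2 under 1 CPM in all lines, but single markers went both ways, 3 of 8 tested being higher and 2 lower in the Esrrb line than in the Nanog-null line. The 8 trophoblast markers gave 99.96 to 246 CPM against 36.3 to 60.8 and 51.5 to 59.6, with Elf5 under 1 CPM in all lines. The 8 fibroblast or feeder markers gave 13.7 to 83.4 CPM against 7.38 to 13.8 and 7.57 to 14.1. Postn, Lum and Dcn were under 1 CPM throughout, and 7 of the 8 were in every Esrrb library. Of 4 tested, 1 was higher and 3 were lower in the Esrrb line than in the Nanog-null line. Of the genes used for the sort, Pecam1 was at 93.5 to 110.5, 52 to 68.6 and 46.4 to 54.2 CPM and lower in the Esrrb line (-0.71 ± 0.10, edgeR adjusted p = 0.000176), and Pdgfra was at 0.463 to 4.43, 5.84 to 14.1 and 1.77 to 3.86 CPM and higher there (2.16 ± 0.52, edgeR adjusted p = 0.00474). These levels move with the same lines as the respiratory genes below, and their part in the results was not tested.

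Compared per kilobase of exon, with all annotated exons of a gene merged, 6 of the 7 mitochondrially encoded members were above every nuclear one. Merged exons can be longer than a single transcript, for Atp5b 4237 bases against 1916 in its longest coding transcript. The order between nuclear and mitochondrially encoded genes therefore depends on the length used. As a mean over the 9 libraries, mt-Co1 stood at 2948 CPM per kilobase, mt-Cytb at 2309 and mt-Nd1 at 2295, and the lowest of the 7, mt-Nd4, at 519.8, which was below Atp5b. The most abundant nuclear members were the ATP synthase subunits Atp5b, at 546 CPM per kilobase, and Atp5a1, at 420.2. Cox8a led complex IV at 309 CPM per kilobase, Uqcr10 complex III at 128, Ndufb9 complex I at 103 and Sdhd complex II at 82.5. At the other end, Atp5l was at 1.02, Ndufb2 at 1.08 and Cox4i2 at 1.44 CPM per kilobase. These values also depend on length. Merged exons were 6443 bases for Atp5l (544 in its longest coding transcript), 5628 for Ndufb2 and 788 for Cox4i2. Their counts over the 9 libraries were 1619, 1481 and 277. Atp5l is a subunit of the ATP synthase itself, and 84.8% of the 50-base windows of its transcripts also occur in other annotated genes, so its low count cannot be read as a low level.

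Promoter sequence was examined because Esrrb is one of the genes that differ between the lines. Of the 79 nuclear members, 65 had an entry in the RefSeq table of promoter windows (GRCm38.p6, 250 bases before to 50 after the annotated start). Both strands were searched for 5 motifs. The long estrogen-related receptor motif TCAAGGTCA occurred in 2 of the 65 promoters (3.08%) and in 0.466% of all genes in the table. Its shorter form AAGGTCA, which lies within the long one, occurred in 7 (10.8% against 5.38%). The palindromic NRF1 motif, in capitals in the Cox6a1 sequence below, occurred in 5 (7.69% against 1.07%), the ETS motif CCGGAAGT, bound by GABPA among others, in 5 (7.69% against 4.31%), and the YY1 motif AAGATGGC in 10 (15.4% against 3.19%). The YY1 motif contains ATG and lay mostly downstream of the start. Among the 43 promoters of members that were higher in the Esrrb line, AAGGTCA occurred in 4 (9.3%), and among the 22 others in 3 (13.6%). In the same order, TCAAGGTCA occurred in 1 (2.33%) and 1 (4.55%). The NRF1 and ETS motifs each occurred in 4 (9.3%) and 1 (4.55%), and the YY1 motif in 7 (16.3%) and 3 (13.6%). Matches are a description of letters and not evidence of binding.

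Shown are the bases upstream of Atp5g3, on chromosome 2, which holds the long receptor motif in reverse complement, and of Cox6a1, on chromosome 5, which holds the NRF1 motif. They are followed by 30 bases after the start of Sdhd, the other member with the long receptor motif, and of Ndufa9, which holds the YY1 motif. Capitals mark the motif, and all 4 sequences are RefSeq, GRCm38.p6, minus strand, written 5′ to 3′.
Atp5g3, chr2:73911327-73911576: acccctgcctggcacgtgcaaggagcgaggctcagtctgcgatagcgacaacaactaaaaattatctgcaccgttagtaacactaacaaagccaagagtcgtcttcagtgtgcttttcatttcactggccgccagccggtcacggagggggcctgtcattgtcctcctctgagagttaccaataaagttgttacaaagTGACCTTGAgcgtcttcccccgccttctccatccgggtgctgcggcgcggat
Cox6a1, chr5:115348959-115349208: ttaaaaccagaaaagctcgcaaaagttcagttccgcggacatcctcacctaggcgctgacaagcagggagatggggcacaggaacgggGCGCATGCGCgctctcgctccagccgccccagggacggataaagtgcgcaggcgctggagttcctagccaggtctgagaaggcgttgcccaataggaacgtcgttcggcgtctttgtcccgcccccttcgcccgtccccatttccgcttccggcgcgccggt
Sdhd, chr9:50603800-50603829: tttccgggttgtagagTGACCTTGAgccct
Ndufa9, chr6:126849095-126849124: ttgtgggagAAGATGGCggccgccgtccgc

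In the Esrrb line, most nuclear respiratory chain genes were higher than in the Nanog-null line, while no mitochondrially encoded member passed the test. Of the 79 nuclear members, 52 were called higher (edgeR quasi-likelihood test, Benjamini-Hochberg adjusted p below 0.05 over 16198 genes), 1 was called lower and 26 were not called. Over all tested genes, 24.2% were called higher and 24.2% lower. The median log2 change of the nuclear members was 0.26, a fold of 1.19, against 0.006 over all tested genes. All 3 Esrrb libraries lay above all 3 Nanog-null libraries for 58 nuclear members (29.4% of all tested genes did so), and below them for 1 (29.0%). Log2 changes of the nuclear members ran from -0.22 (Ndufc2) to 0.86 (Ndufa4l2). In bulk RNA, more cells of a type and more RNA per cell cannot be told apart. Without replicate 2 of the Nanog-null line, 46 nuclear members were called higher.

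**Figure D1:**
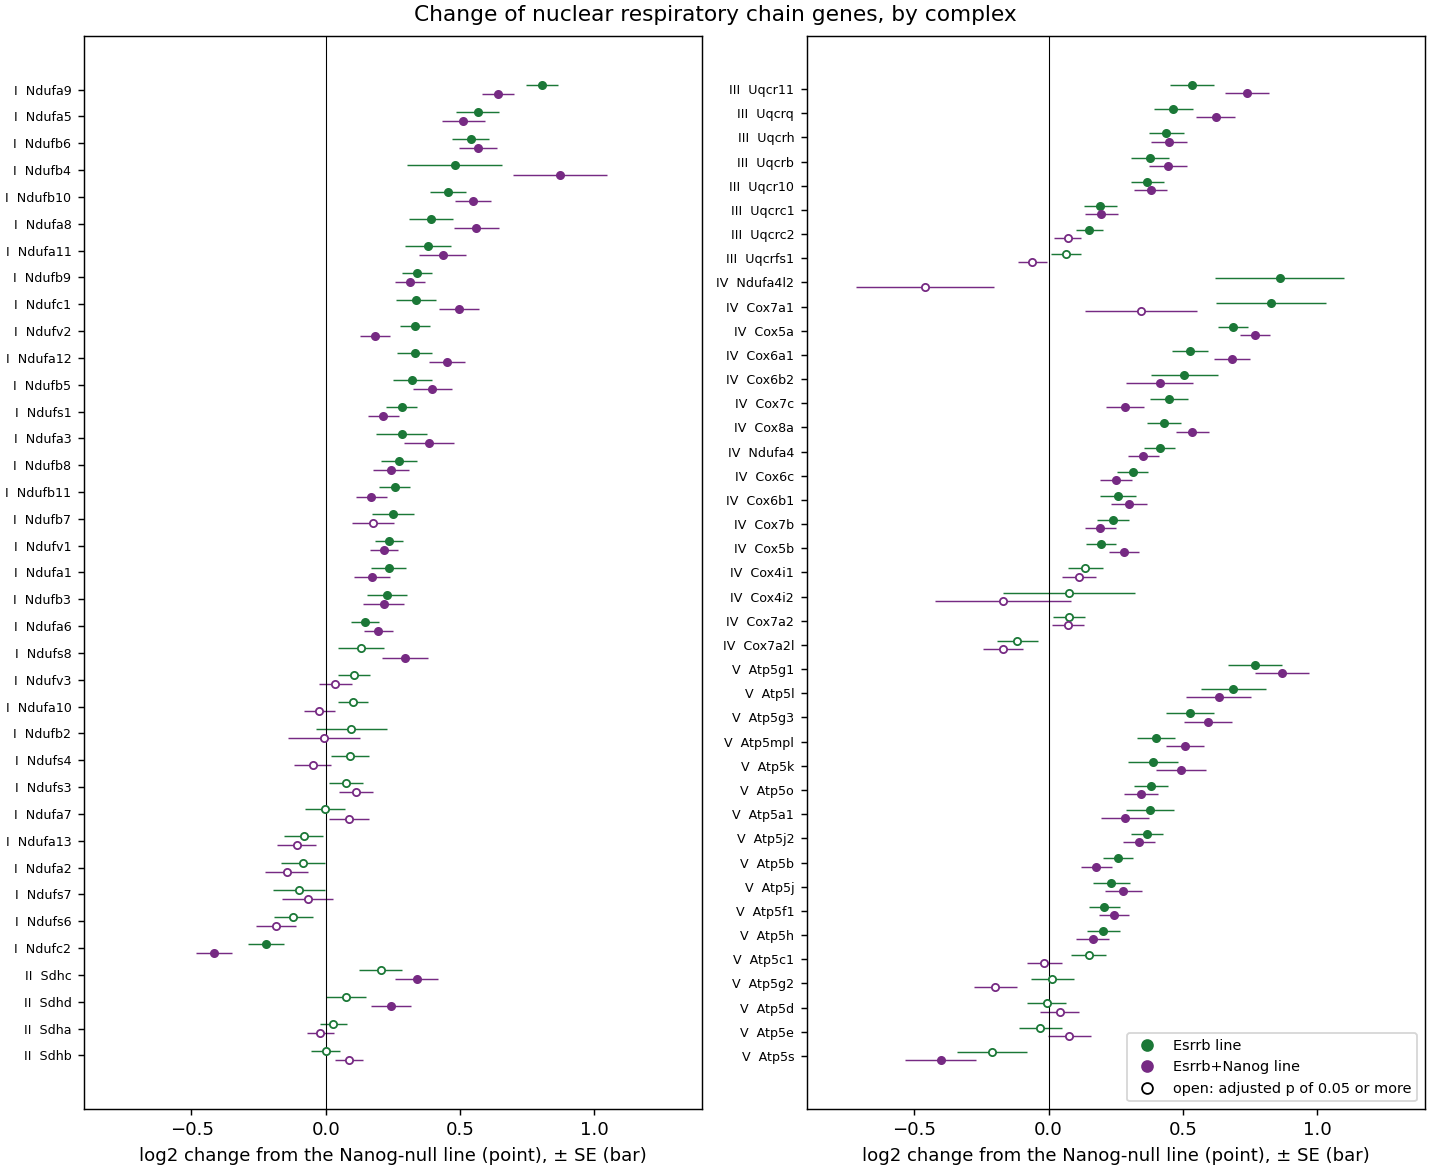
Log2 change of 78 of the 79 nuclear members in the Esrrb line (green) and the Esrrb+Nanog line (purple) from the Nanog-null line, by complex; points are the fitted change, bars its standard error, and open points did not pass the test. Most points lie right of 0 in both lines. The only called points to the left are those of Ndufc2 in both lines and Atp5s in the Esrrb+Nanog line.

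Complex I contributed 21 higher genes and 1 lower gene of 34. Its peripheral arm holds the core subunits that take electrons from NADH. All 3 core subunits of the NADH-oxidising part, Ndufs1, Ndufv1 and Ndufv2, were called higher, with log2 changes between 0.24 and 0.33. Ndufv1, which binds the flavin, was at 157, 161 and 156 CPM (Nanog-null), 193, 180.1 and 186 CPM (Esrrb) and 178, 186 and 187 CPM (Esrrb+Nanog). Every library of the Esrrb and Esrrb+Nanog lines lay above every Nanog-null library, and the log2 change in the Esrrb line was 0.24 ± 0.0524 (edgeR adjusted p = 0.00295). Ndufs1, the large iron-sulfur subunit, changed by 0.28 ± 0.0573 (edgeR adjusted p = 0.00166). Of the core subunits further along the electron path, Ndufs3 (0.074 ± 0.0634, edgeR adjusted p = 0.36), Ndufs7 (-0.10 ± 0.10, edgeR adjusted p = 0.412) and Ndufs8 (0.13 ± 0.0862, edgeR adjusted p = 0.231) were not called.

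Accessory subunits of complex I carried most of its higher calls. In the B class of the membrane arm 9 of 10 were called higher, with log2 changes of all 10 between 0.094 and 0.54, and in the A class 7 of 10, between -0.082 and 0.80. Of the 5 accessory subunits at the NADH-oxidising end, 1 was called higher, and the 5 ran from -0.12 to 0.33. Ndufa9 (chromosome 6, 126821721 to 126849136, mm10), an accessory subunit next to the ubiquinone site, had the smallest adjusted p in complex I. Its level was 79.3, 74.8 and 76.4 CPM (Nanog-null), 136, 138 and 129 CPM (Esrrb) and 114, 122 and 124 CPM (Esrrb+Nanog). The Nanog-null libraries were the 3 lowest, and the log2 change in the Esrrb line was 0.80 ± 0.0589 (edgeR adjusted p = 1.14e-06), a fold of 1.75. Ndufa5, another accessory subunit, was at 25.6 ± 1.04, 37.8 ± 3.01 and 36.4 ± 1.95 CPM (mean ± SD of 3 libraries, in the order Nanog-null, Esrrb, Esrrb+Nanog), with 0.57 ± 0.0805 (edgeR adjusted p = 0.000143). Ndufb9, the most abundant nuclear member of complex I per kilobase, changed by 0.34 ± 0.0555 (edgeR adjusted p = 0.000389). Ndufb4 had few counts, at 2.45 ± 0.432, 3.43 ± 0.394 and 4.5 ± 0.41 CPM, and shares 37.0% of its windows with other genes. Its call in the Esrrb line (0.48 ± 0.18, edgeR adjusted p = 0.0403) was lost with DESeq2, where the adjusted p was 0.0696, and in several other fits.

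Against the direction of its complex, Ndufc2, a membrane arm subunit, was lower. It was at 63.7, 65.2 and 59.5 CPM (Nanog-null), 56.2, 50.7 and 54.4 CPM (Esrrb) and 47.8, 47.9 and 45.3 CPM (Esrrb+Nanog). Libraries of the Nanog-null line were the 3 highest, with a log2 change of -0.22 ± 0.0662 (edgeR adjusted p = 0.015). This call was lost without replicate 2 of the Esrrb line (adjusted p = 0.0626). The excluded Ndufb1-ps has a name that marks a pseudogene, but its annotated type is a long noncoding RNA from a bidirectional promoter. It was at 23 ± 1.15, 21.2 ± 0.977 and 21.1 ± 0.773 CPM with a log2 change of -0.12 ± 0.0779 (edgeR adjusted p = 0.239), and was not called.

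Complex II, succinate dehydrogenase, is also an enzyme of the tricarboxylic acid cycle and has no mitochondrially encoded subunit. None of its 4 genes was called in the Esrrb line, and the median log2 change was 0.051. Sdha, the flavoprotein, was at 311 ± 4.62, 317 ± 7.7 and 307 ± 8.97 CPM and Sdhb, the iron-sulfur subunit, at 106 ± 0.473, 106 ± 1.86 and 112 ± 4.53 CPM. Their log2 changes were 0.028 ± 0.0508 (edgeR adjusted p = 0.682) and -0.001 ± 0.0534 (edgeR adjusted p = 0.987). The membrane anchor Sdhc was at 94.8, 95.1 and 91.2 CPM (Nanog-null), 108, 114 and 102 CPM (Esrrb) and 103, 123 and 129 CPM (Esrrb+Nanog). Its Esrrb libraries lay above the Nanog-null ones with 0.20 ± 0.0808 (edgeR adjusted p = 0.0544), just outside the threshold, and it passed in 4 of the 15 other fits. The other anchor, Sdhd, whose window holds the long receptor motif shown above, was at 94.1 ± 3.49, 99.1 ± 8.26 and 111 ± 7.23 CPM with 0.075 ± 0.0732 (edgeR adjusted p = 0.424).

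Complex III showed the highest share of calls, 7 of 8 nuclear genes, all higher, with a median log2 change of 0.37. All 5 small accessory subunits rose. Uqcr11 was at 36.6, 37.6 and 36.6 CPM (Nanog-null), 56.7, 54.1 and 49.6 CPM (Esrrb) and 55.5, 61.5 and 68 CPM (Esrrb+Nanog), with Nanog-null libraries lowest and a log2 change of 0.53 ± 0.0824 (edgeR adjusted p = 0.000258). Uqcrh, the hinge protein next to cytochrome c1, changed by 0.44 ± 0.0668 (edgeR adjusted p = 0.000232), and Uqcr10, the most abundant per kilobase, by 0.37 ± 0.0618 (edgeR adjusted p = 0.000466). The large core proteins Uqcrc1 and Uqcrc2 were also called, at smaller log2 changes of 0.19 and 0.15. The gene not called was Uqcrfs1, the Rieske iron-sulfur protein of the catalytic core, at 120.4 ± 0.449, 126 ± 5.73 and 116 ± 2.8 CPM with 0.065 ± 0.0544 (edgeR adjusted p = 0.346).

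Complex IV had 12 of 16 nuclear genes higher and none lower, with a median log2 change of 0.36. Of the 11 subunits used in most tissues, 9 were called higher. Cox5a (chromosome 9, 57521274 to 57532426, mm10) had the smallest adjusted p in complex IV, at 107, 103 and 103 CPM (Nanog-null), 165, 175 and 164 CPM (Esrrb) and 173, 186 and 174 CPM (Esrrb+Nanog). Both other lines lay above all Nanog-null libraries, with 0.69 ± 0.0557 (edgeR adjusted p = 2.49e-06) in the Esrrb line. Cox6a1, whose upstream sequence is printed above, was at 144, 159 and 153 CPM (Nanog-null), 238, 213 and 207 CPM (Esrrb) and 250.4, 247 and 235 CPM (Esrrb+Nanog). The log2 change was 0.53 ± 0.0668 (edgeR adjusted p = 6e-05), and again the Nanog-null libraries were lowest. Cox8a changed by 0.43 ± 0.0622 (edgeR adjusted p = 0.000162), Ndufa4 by 0.41 ± 0.0577 (edgeR adjusted p = 0.000125) and Cox6b1 by 0.26 ± 0.068 (edgeR adjusted p = 0.00802), the last call being lost without replicate 1 of the Nanog-null line (adjusted p = 0.0521). Cox4i1, the most used form of the largest nuclear subunit, was not called, at 309.9 ± 11.2, 341 ± 26.7 and 335 ± 7.7 CPM and 0.14 ± 0.0642 (edgeR adjusted p = 0.0974), but was called without replicate 3 of the Esrrb line (adjusted p = 0.0169). Cox7a2 was also not called (0.076 ± 0.06, edgeR adjusted p = 0.323), nor was Cox7a2l, which helps complexes III and IV join into supercomplexes (-0.12 ± 0.0751, edgeR adjusted p = 0.224).

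Tissue forms of complex IV subunits included 3 with few counts, Cox7a1, Ndufa4l2 and Cox4i2. Cox7a1, the heart and muscle form, was at 2.18, 3.08 and 3.45 CPM (Nanog-null), 4.98, 6.33 and 4.26 CPM (Esrrb) and 3.21, 3.94 and 3.99 CPM (Esrrb+Nanog). All Esrrb libraries exceeded all Nanog-null libraries, with 0.83 ± 0.20 (edgeR adjusted p = 0.00545). Ndufa4l2, known as a gene that hypoxia induces, was at 3.01, 3.12 and 4.28 CPM (Nanog-null), 8.19, 4.09 and 6.8 CPM (Esrrb) and 2.73, 2.25 and 2.63 CPM (Esrrb+Nanog). The Esrrb libraries spread widely and overlapped the Nanog-null ones, and the call (0.86 ± 0.24, edgeR adjusted p = 0.011) was lost without replicate 1 of the Esrrb line, where the adjusted p was 0.0586. Cox6b2, a testis form, was at 25.9 ± 4.12, 36.9 ± 5.76 and 34.7 ± 0.36 CPM and changed by 0.51 ± 0.12 (edgeR adjusted p = 0.0053), and Cox4i2, a lung form, was at 1.15 ± 0.0505, 1.21 ± 0.181 and 1.03 ± 0.285 CPM with 0.077 ± 0.25 (edgeR adjusted p = 0.819).

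In complex V, 12 of 17 genes were higher and none was lower, with a median log2 change of 0.26. All 4 genes of the peripheral stalk rose, by 0.20 to 0.38, as did all 4 accessory genes of the membrane part, by 0.37 to 0.69, and 2 of 5 genes of the F1 head were called. The 2 in the head were its most abundant, Atp5b and Atp5a1. Atp5b was at 2059, 2089.9 and 2105 CPM (Nanog-null), 2516, 2552 and 2411 CPM (Esrrb) and 2216, 2450.5 and 2411 CPM (Esrrb+Nanog), with the Nanog-null libraries lowest and 0.26 ± 0.0566 (edgeR adjusted p = 0.00271) in the Esrrb line. Atp5a1 changed by 0.38 ± 0.0895 (edgeR adjusted p = 0.00428). The ring of c subunits, which turns as protons pass, is made from 3 genes that encode the same mature protein, and they did not move alike. Atp5g1 (chromosome 11, 96068852 to 96075670, mm10) was at 68.2, 67.1 and 68.5 CPM (Nanog-null), 119.7, 125 and 103 CPM (Esrrb) and 104, 138 and 129.8 CPM (Esrrb+Nanog), with 0.77 ± 0.10 (edgeR adjusted p = 8.43e-05). Atp5g3, whose upstream sequence holds the long receptor motif, was at 245, 233 and 227 CPM (Nanog-null), 351, 367 and 296 CPM (Esrrb) and 315, 381 and 367 CPM (Esrrb+Nanog), with 0.53 ± 0.0891 (edgeR adjusted p = 0.000498). Both had the Nanog-null libraries lowest. Atp5g2 was at 31.3 ± 1.41, 31.6 ± 1.03 and 27.3 ± 2.3 CPM, with 0.014 ± 0.0792 (edgeR adjusted p = 0.9). The difference between the 3 genes was not tested. Atp5l was called higher (0.69 ± 0.12, edgeR adjusted p = 0.000632), with its shared sequence as above.

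Summed over its nuclear members, complex I stood at 2143 ± 36, 2492 ± 50.04 and 2466 ± 63.5 CPM in the Nanog-null, Esrrb and Esrrb+Nanog lines (mean ± SD, n = 3 libraries each, no test). Complex II stood at 605 ± 10.02, 630.3 ± 13.5 and 649 ± 29.98 CPM, complex III at 808 ± 4.57, 968 ± 34.5 and 974 ± 46.1, complex IV at 1551 ± 14.7, 1934 ± 73.2 and 1949 ± 59.8 and complex V at 4832 ± 22.6, 5931 ± 321 and 5710.4 ± 403. In every complex the Nanog-null libraries were the 3 lowest of the 9. For complex II the gap was small, from 613 CPM in the highest Nanog-null library to 615 in the lowest of the others. The nuclear members together took 0.995 ± 0.0133, 1.17 ± 0.0445 and 1.2 ± 0.0444 percent of all counts, and the mitochondrially encoded members 1.37 ± 0.105, 1.31 ± 0.161 and 1.19 ± 0.0471 percent.

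**Figure D2:**
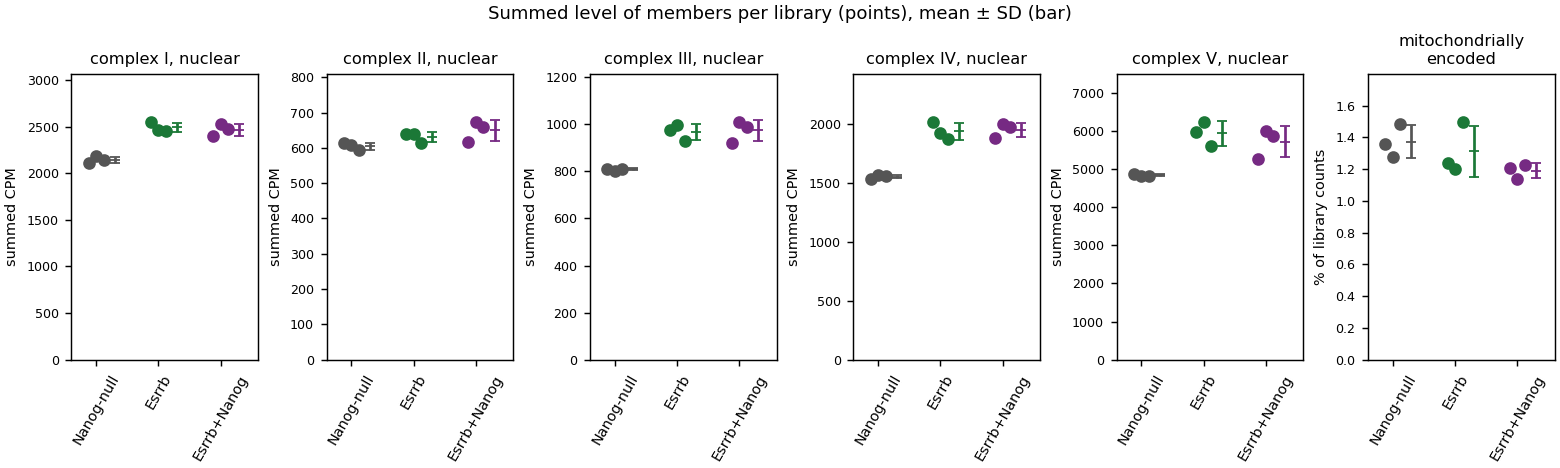
Summed level in CPM of the nuclear members of each complex, and percent of library counts in the mitochondrially encoded members, by line; points are libraries and bars the mean ± SD. Complexes I, III, IV and V sit clearly higher in the Esrrb and Esrrb+Nanog lines than in the Nanog-null line, complex II barely so (615 CPM and above against 613 and below), and the mitochondrially encoded share overlaps between the Nanog-null and Esrrb lines.

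Members whose transcripts are also found elsewhere in the genome could gain or lose reads to the copies. Of the nuclear members, 54 share under 10% of their 50-base windows with any other annotated transcript. Among these, 32 were higher (59.3%) and 1 was lower (1.85%) in the Esrrb line. Of the 25 that share 10% or more, 20 were higher (80.0%) and none was lower. Over all tested genes, 24.2% were called each way. The part of shared sequence in these calls was not tested. The median log2 change was 0.24 in the first group and 0.32 in the second.

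None of the 7 mitochondrially encoded members passed the test in the Esrrb line, also at an unadjusted p below 0.05 and with DESeq2, while 48.5% of all tested genes were called either way. Log2 changes ran from -0.10 (mt-Nd1) to 0.24 (mt-Nd6), with a median of -0.023. For mt-Nd6, the only messenger of this set read from the light strand, the change was 0.24 ± 0.11 (edgeR adjusted p = 0.093), and it was called with no low-count filter (adjusted p = 0.00473), with the replicate number as a block (adjusted p = 0.0259) and without replicate 2 of the Esrrb line (adjusted p = 0.0289). The other values were 0.12 ± 0.10 (edgeR adjusted p = 0.362) for mt-Nd5, -0.071 for mt-Nd2, -0.014 for mt-Nd4, -0.023 for mt-Cytb and -0.057 for mt-Co1, with adjusted p between 0.362 and 0.929. The nuclear and mitochondrial sets were not compared by a test of their difference.

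The Esrrb+Nanog line was next set beside the Esrrb line. This comparison uses the same Esrrb libraries as the first, so a change up there and down here is not 2 independent results. Nanog was higher there by 3.15 ± 0.13 (edgeR adjusted p = 2.79e-07) and Esrrb by 0.46 ± 0.10 (edgeR adjusted p = 0.0133). The Esrrb call was lost without replicate 1 of the Esrrb line or replicate 2 of the Esrrb+Nanog line (edgeR adjusted p = 0.0633 and 0.0544). Effects of the 2 genes cannot be told apart in this comparison. Here 1 of 79 nuclear and 3 of 7 mitochondrially encoded members passed the test, all of them lower. No nuclear member was called higher (5.43% of all tested genes were), and 7.75% of all tested genes were called lower. At an unadjusted p below 0.05, edgeR gave 6 higher and 10 lower nuclear members. The shares of all tested genes given here are at the adjusted threshold and are no background for these counts. DESeq2 also called none higher. The median log2 change of the nuclear members was -0.02. All 3 Esrrb+Nanog libraries lay above the Esrrb ones for 6 nuclear members (14.9% of all tested genes) and below them for 13 (16.7%). The 1 lower gene was Ndufa4l2, whose values are given above. Its 3 Esrrb+Nanog libraries lay below its 3 Esrrb libraries, with -1.32 ± 0.25 (edgeR adjusted p = 0.00505), and it was lower in all 16 fits that were run. Cox7a1 was lower in each library without being called (-0.49 ± 0.20, edgeR adjusted p = 0.136). The nearest changes upward included Ndufb4 (0.39 ± 0.17, edgeR adjusted p = 0.152) and Uqcr11 (0.21 ± 0.0811, edgeR adjusted p = 0.12), which was called with library totals alone and without replicate 1 of the Esrrb+Nanog line (adjusted p = 0.0374 and 0.0416).

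Of the mitochondrially encoded members, 3 of 7 were called lower in the Esrrb+Nanog line than in the Esrrb line, and none was called higher, beside 13.2% of all tested genes called either way. The most abundant, mt-Co1 (mitochondrial DNA, bases 5328 to 6872), encodes the catalytic subunit of complex IV. It was at 5192, 4763 and 5682 CPM (Nanog-null), 4775, 4433 and 5824 CPM (Esrrb) and 3533, 3199 and 3593 CPM (Esrrb+Nanog). The 3 Esrrb+Nanog libraries were the 3 lowest of all 9, with -0.54 ± 0.10 (edgeR adjusted p = 0.00471). For mt-Nd5, a proton-pumping subunit of complex I (bases 11742 to 13565), the values were 1490.0, 1344 and 1503 CPM (Nanog-null), 1478, 1366 and 1861 CPM (Esrrb) and 1194, 1081 and 1194 CPM (Esrrb+Nanog). Again the Esrrb+Nanog libraries were lowest, with -0.44 ± 0.10 (edgeR adjusted p = 0.0151). For mt-Nd6 (bases 13552 to 14070, on the other strand), which overlaps mt-Nd5, they were 303, 297 and 355 CPM (Nanog-null), 351, 329 and 449 CPM (Esrrb) and 292, 251 and 279.7 CPM (Esrrb+Nanog). The log2 change was -0.46 ± 0.11 (edgeR adjusted p = 0.0199). The strand setting of the counting is not known from the labels. Reads from both genes therefore cannot be told apart in their short overlap, bases 13552 to 13565. Along the rest of mt-Nd6, reads from precursors of the opposite strand may also have been counted to it. Without replicate 2 of the Esrrb+Nanog line, the calls of mt-Nd5 and mt-Nd6 were lost (adjusted p = 0.0686 and 0.0858) and mt-Co1 stayed called. Without replicate 3 of the Esrrb line, that of mt-Nd6 was lost as well (adjusted p = 0.0571).

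The other 4 mitochondrially encoded members were not called. The cytochrome b gene of complex III, mt-Cytb (bases 14145 to 15288), was at 2510.0, 2331 and 2694 CPM (Nanog-null), 2313, 2318 and 2788 CPM (Esrrb) and 2828, 2787 and 3204 CPM (Esrrb+Nanog), with 0.25 ± 0.0879 (edgeR adjusted p = 0.0854). Its Esrrb and Esrrb+Nanog libraries overlapped. It was called higher in 4 of the 15 other fits, namely with library totals alone (adjusted p = 0.0246), with no low-count filter (adjusted p = 0.000866), with the replicate number as a block (adjusted p = 0.0193) and without replicate 3 of the Esrrb line (adjusted p = 0.0268). Log2 changes were 0.13 ± 0.076 (edgeR adjusted p = 0.292) for mt-Nd2, -0.12 ± 0.0762 (edgeR adjusted p = 0.323) for mt-Nd1 and -0.14 ± 0.11 (edgeR adjusted p = 0.468) for mt-Nd4. Within each library, which cancels library size, mt-Co1 had 2.07 ± 0.0331, 2.02 ± 0.0955 and 1.17 ± 0.0675 counts per count of mt-Cytb in the Nanog-null, Esrrb and Esrrb+Nanog lines (mean ± SD of 3 libraries). Every Esrrb+Nanog library, at 1.12 to 1.25, was below every other library, the lowest of which was at 1.91. The ratio of mt-Nd5 to mt-Cytb was 0.576 ± 0.0178, 0.632 ± 0.0396 and 0.394 ± 0.0254, with the Esrrb+Nanog libraries again below all others. With 3 libraries against 3, a two-sided exact permutation test cannot give a p below 0.1, so these ratios are given without a test. They describe counts that differed unequally between the lines, and do not tell which of the genes changed or whether its messenger did.

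**Figure D3:**
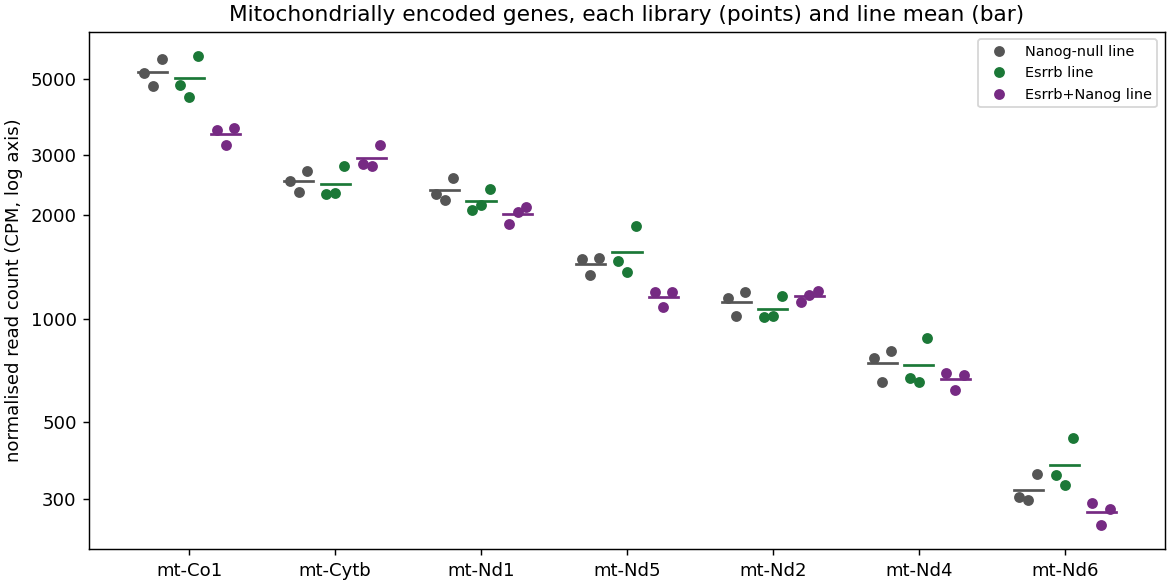
Level of the 7 mitochondrially encoded members in CPM on a log axis, not corrected for length; points are libraries, coloured by line, and bars are line means. For mt-Co1 and mt-Nd5 the 3 Esrrb+Nanog points lie below the points of both other lines, and for mt-Cytb they lie above the Nanog-null points.

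The Esrrb+Nanog line was also compared with the Nanog-null line. This comparison shares its Nanog-null libraries with the first and its Esrrb+Nanog libraries with the second, so its calls are not independent of theirs and are given side by side. Again 52 nuclear members were called higher, where 27.2% of all tested genes were higher and 27.2% lower, and 2 were called lower. The median log2 change was 0.24. The libraries did not overlap for 57 nuclear members that were higher (31.2% of all tested genes) and 9 that were lower (30.7%). By complex, 22 of 34 nuclear genes of complex I, 2 of 4 of complex II, 6 of 8 of complex III, 10 of 16 of complex IV and 12 of 17 of complex V were higher. Without replicate 2 of the Nanog-null line, 44 nuclear members were called higher. Cox5a had a change of 0.77 ± 0.0558 (edgeR adjusted p = 7.19e-07), Atp5g1 of 0.87 ± 0.10 (edgeR adjusted p = 2.6e-05) and Ndufb4 of 0.87 ± 0.17 (edgeR adjusted p = 0.00124). In complex II the anchors were called, Sdhc with 0.34 ± 0.0808 (edgeR adjusted p = 0.00391) and Sdhd with 0.24 ± 0.0732 (edgeR adjusted p = 0.0143). The Sdhd call was lost without replicate 3 of the Nanog-null line (adjusted p = 0.0797) and without replicate 2 of the Esrrb+Nanog line (adjusted p = 0.0692). Between the Esrrb and Esrrb+Nanog lines themselves, neither Sdhc (0.13 ± 0.0805, edgeR adjusted p = 0.315) nor Sdhd (0.17 ± 0.073, edgeR adjusted p = 0.158) was called, though Sdhc was without replicate 1 of the Esrrb+Nanog line (adjusted p = 0.0462). Lower genes were Ndufc2 (-0.42 ± 0.0666, edgeR adjusted p = 0.000257) and Atp5s, a factor related to the ATP synthase that is not a stable subunit (-0.40 ± 0.13, edgeR adjusted p = 0.022). The Atp5s call was lost without replicate 1 of the Nanog-null line (adjusted p = 0.0648) and without replicate 3 of the Esrrb+Nanog line.

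Of the mitochondrially encoded members, 4 of 7 were called in this comparison, beside 54.4% of all tested genes. Lower were mt-Co1 (-0.60 ± 0.10, edgeR adjusted p = 0.000359), mt-Nd5 (-0.32 ± 0.10, edgeR adjusted p = 0.0177) and mt-Nd1 (-0.23 ± 0.0762, edgeR adjusted p = 0.0237), and mt-Cytb was higher (0.23 ± 0.0879, edgeR adjusted p = 0.0458). Without replicate 2 of the Esrrb+Nanog line, the call of mt-Nd5 was lost (adjusted p = 0.0759). The calls of mt-Cytb and mt-Nd1 did not hold in all fits, and the adjusted p of mt-Cytb ran up to 0.165. The mitochondrial ribosomal RNAs, which the depletion of ribosomal RNA acts on, also fell, mt-Rnr1 with -0.43 ± 0.11 (edgeR adjusted p = 0.00669) and mt-Rnr2 with -0.60 ± 0.0929 (edgeR adjusted p = 0.000216). Their share of the counts was 0.111 ± 0.0102, 0.0967 ± 0.0106 and 0.0765 ± 0.00406 percent in the 3 lines. Its part in the results was not tested.

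The counts show unequal recovery of mitochondrial genes. Mitochondrial DNA encodes 13 respiratory chain proteins, of which 7 had 79298 to 1114035 counts over the 9 libraries and 6, mt-Atp6, mt-Atp8, mt-Co2, mt-Co3, mt-Nd3 and mt-Nd4l, had 0 or 1. These 6 lie next to each other, between mt-Co1 and mt-Nd4, whose own levels per kilobase were 2948 and 519.8 CPM. For 5 of the 6, 98.0% to 100% of 50-base windows also occur in pseudogenes annotated on chromosome 1, such as Gm28437 for mt-Co3 and Gm10925 for mt-Atp6. The copy of mt-Nd3, Gm28438, received 1768 counts, 122 to 258 in each library. Copies of the others received fewer, Gm28437 0 to 3 and Gm10925 0 to 4 in each library. For mt-Co2, Gm13341 received 10 to 20 and Gm28661 0 to 4, and for mt-Nd4l, Gm10222 received 8 to 18. The exception is mt-Atp8, none of whose windows was found in another annotated transcript and which still had 0 counts. Among the members, mt-Nd4 shares 62.2% of its windows, mt-Co1 51.1%, mt-Nd2 8.2% and mt-Nd5 7.6%, while mt-Nd1, mt-Nd6 and mt-Cytb share none. How reads with more than 1 match were counted is not stated, and the levels of these genes, the order of levels between mitochondrial genes included, are uncertain to that extent. Of the members that share under 10%, mt-Nd5 and mt-Nd6 were called lower in Esrrb+Nanog than in Esrrb. The others, mt-Nd1 (downward), mt-Nd2 and mt-Cytb (both upward), were not called. The part of sequence sharing in the mt-Co1 difference between lines was not tested.

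**Figure D4:**
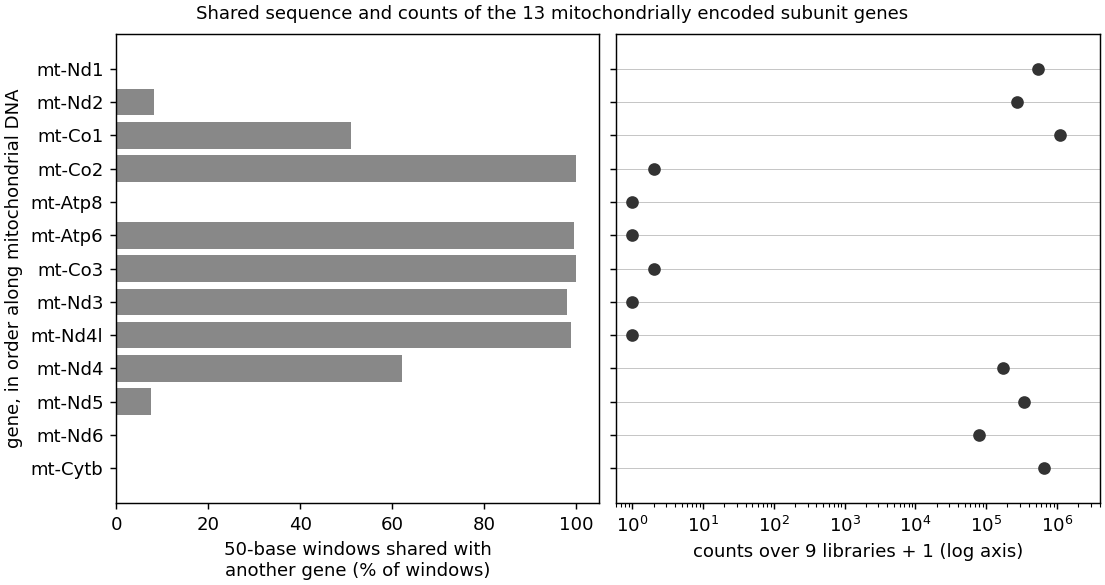
Share of 50-base windows found in another annotated gene (bars, left) and counts summed over the 9 libraries plus 1, on a log axis (points, right), for the 13 protein-coding mitochondrial genes in their order along mitochondrial DNA. The 6 genes with 0 or 1 count form a run from mt-Co2 to mt-Nd4l, and 5 of them have shares of 98.0% or more.

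Genes that build and serve the chain, taken from fixed lists, were compared in the same fits. In the Esrrb line, 10 of 17 tested assembly factors of complex IV were higher than in the Nanog-null line and 1 was lower (58.8% and 5.88%, against 24.2% each way over all tested genes), with a median log2 change of 0.29. The copper chaperone Cox17 had the largest change, 1.27 ± 0.17 (edgeR adjusted p = 0.000107), at 5.14 ± 1.31, 12.5 ± 0.403 and 11.4 ± 1.94 CPM, and Pet100 changed by 0.71 ± 0.11 (edgeR adjusted p = 0.000271). Of 15 assembly factors of complex I, 6 were higher (40.0%) and 2 lower (13.3%). Acad9 was higher by 0.95 ± 0.0908 (edgeR adjusted p = 7.86e-06). It was lower in the Esrrb+Nanog line than in the same Esrrb libraries, by -0.41 ± 0.0893 (edgeR adjusted p = 0.012). Ndufaf6 and Ndufaf7 fell in the Esrrb line, by -0.57 ± 0.0815 (edgeR adjusted p = 0.000144) and -0.66 ± 0.075 (edgeR adjusted p = 2.66e-05). Complexes II and III had 3 of 10 assembly factors higher (30.0%), among them Sdhaf1 (0.54 ± 0.17, edgeR adjusted p = 0.0189), whose call was lost in 4 of the 15 other fits, and complex V 1 of 4, Atpaf2 (0.22 ± 0.0786, edgeR adjusted p = 0.0381), whose call was lost in most of the other fits. These last shares are near that of all tested genes.

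Subunits and carriers outside the name rule had 4 of 7 higher and none lower in the Esrrb line (57.1%, against 24.2% of all tested genes), and 2 of 7 higher without replicate 1 of the Nanog-null line. They include Higd2a, a supercomplex factor, with 0.68 ± 0.0864 (edgeR adjusted p = 6.04e-05). The ATP synthase inhibitor Atpif1 was lower in the Esrrb+Nanog line than in the Esrrb line (-0.27 ± 0.0563, edgeR adjusted p = 0.00953), though not without replicate 1 of the Esrrb line (adjusted p = 0.0511). Coenzyme Q synthesis had 2 of 13 higher (15.4%, and 1 of 13 when any of 5 libraries was left out, replicates 2 and 3 of the Nanog-null, 1 and 3 of the Esrrb and 1 of the Esrrb+Nanog line) and 1 lower, the last being Coq2 (-0.66 ± 0.14, edgeR adjusted p = 0.00279). The tricarboxylic acid cycle and pyruvate dehydrogenase had 8 of 18 higher (44.4%) and 1 lower (5.56%), with Pdhb, a subunit of the pyruvate dehydrogenase E1 enzyme, at 0.74 ± 0.058 (edgeR adjusted p = 1.86e-06). Between Esrrb+Nanog and Esrrb, 4 of these 18 were lower (22.2%, against 7.75% of all tested genes) and 0 higher. Only 2 were lower without replicate 1 or 3 of the Esrrb line, or replicate 2 or 3 of the Esrrb+Nanog line. In the Esrrb line, 5 of 19 import and outer membrane genes were higher (26.3%, near the share of all tested genes) and 2 lower (10.5%), with Vdac1, the outer membrane channel, at 0.45 ± 0.0819 (edgeR adjusted p = 0.000784).

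Genes that read and copy mitochondrial DNA and genes that process its RNA were taken as 2 lists. Of 16 tested factors for transcription and replication, 1 was higher and 4 were lower in the Esrrb line (24.2% each way over all tested genes). Lower genes included the elongation factor Tefm (-0.37 ± 0.10, edgeR adjusted p = 0.00775) and the polymerase gene Polg (-0.29 ± 0.0647, edgeR adjusted p = 0.00298). Between Esrrb+Nanog and Esrrb, 1 of the 16 was higher (6.25%) and 2 were lower (12.5%), against 5.43% and 7.75% of all tested genes. These counts ran from 0 to 1 and 0 to 2 with single libraries left out. Tefm was lower still there (-0.47 ± 0.10, edgeR adjusted p = 0.0094), a call lost without replicate 1 of the Esrrb line (adjusted p = 0.0511). Of 17 genes for RNA processing and stability, 3 were higher (17.6%) and none lower in the Esrrb line, with a median log2 change of 0.12. Without replicate 2 or 3 of the Nanog-null line, or replicate 2 of the Esrrb line, 1 was. Between Esrrb+Nanog and Esrrb, none was higher and 3 were lower (17.6%, against 7.75% of all tested genes), namely Lrpprc, a stabiliser of mitochondrial messengers (-0.25 ± 0.0599, edgeR adjusted p = 0.0177), Pnpt1 (-0.30 ± 0.063, edgeR adjusted p = 0.00956) and Grsf1 (-0.26 ± 0.0712, edgeR adjusted p = 0.0364). The Grsf1 call was lost in most fits, and that of Lrpprc in 4 of the 15 other fits. Without replicate 3 of the Esrrb line or replicate 2 of the Esrrb+Nanog line, 1 gene of the list was called lower.

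Transcriptional regulators of respiratory genes went both ways. Of 10 tested in the Esrrb line, 3 were higher (30.0%, the added Esrrb included) and 4 lower (40.0%), against 24.2% each way over all tested genes. The lower ones came to 2 without replicate 2 or 3 of the Nanog-null line, without any 1 of the Esrrb libraries and without replicate 2 of the Esrrb+Nanog line. Besides Esrrb itself (1.54 ± 0.11, edgeR adjusted p = 7.37e-07), the ETS factor subunits Gabpa (0.51 ± 0.0714, edgeR adjusted p = 0.000126) and Gabpb2 (0.33 ± 0.0588, edgeR adjusted p = 0.000663) rose. The related receptor Esrra (-0.40 ± 0.0767, edgeR adjusted p = 0.00114), Gabpb1 (-0.28 ± 0.0612, edgeR adjusted p = 0.00262), the coactivator Ppargc1b (-0.41 ± 0.16, edgeR adjusted p = 0.0492) and Perm1 (-0.95 ± 0.35, edgeR adjusted p = 0.0428) were lower, the last of these not in DESeq2 (adjusted p = 0.171), nor Ppargc1b (adjusted p = 0.065). Nrf1 (0.077 ± 0.053, edgeR adjusted p = 0.251), Yy1 (0.083 ± 0.0562, edgeR adjusted p = 0.245) and Pprc1 (0.11 ± 0.0751, edgeR adjusted p = 0.244) were not called. Esrrg, with 27 counts over the 9 libraries, and Ppargc1a, with 3, were too low to test.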

How the data were processed

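RNA was measured in 9 libraries of sorted mouse ES cells. The authors deposited whole-number read counts per Ensembl gene, 1 column per library, without scaling, per the file headers. The submitters' processing notes name bcl2fastq 2.19.1, STAR 2.5.3a and the mm10 build. How reads were assigned to genes and strands is not given in the sources used here. The 9 columns matching the samples by name were used and 6 others were not. Symbols and lengths came from GENCODE M21, which gave a symbol for 52403 of 52636 IDs.

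Tests used edgeR 4.0.16 in R 4.3.3 (default low-count filter, TMM factors, quasi-likelihood test with line as the only term, all 9 libraries in 1 fit, Benjamini-Hochberg adjustment over 16198 genes, threshold 0.05), limma 3.58.1 and, as an alternative, DESeq2 1.42.0. CPM are counts relative to the library's total in tested genes times its TMM factor, on the usual CPM scale, with a mean and SD over 3 libraries, and ± beside a log2 change is its standard error. The steps were tested on simulated data. No 2 replicates agreed within sampling noise. Depth was 21808120 to 32496267 counts per library, which limits the genes with few counts. Other scalings, no low-count filter, the replicate block and leaving out each library were tried.

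Members and gene lists were chosen with earlier results of these data known. Named were all mitochondrially encoded members and the 6 largest called changes per comparison and direction without overlapping libraries. Per complex, the smallest adjusted p, the highest level per kilobase and calls against the majority were named. So were a set of catalytic and other core subunits, isoform pairs, per list genes with the smallest adjusted p, and all regulators. Ndufv2, Ndufs3, Ndufs7, Ndufs8, Ndufb2, Uqcrc1, Uqcrc2, Pecam1, Pdgfra and the excluded genes fall outside that rule and were chosen after their values were seen. A gene that the rule names is not reported here, nor drawn. Of 190 list entries in 16 lists, 188 matched a gene.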

Additional observations from a re-analysis of the deposited data

How the results depend on the processing

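Across the alternatives no called value reversed direction. Of the 52 nuclear members called higher in the Esrrb line, 38 were called in all 16 fits, and of the 52 in the comparison of Esrrb+Nanog with Nanog-null, 37 were. DESeq2 called 50 in each. Library totals without further scaling moved the median of all genes between Esrrb+Nanog and Esrrb to 0.059, the nuclear median there to 0.044 and the nuclear members called higher to 1 (Uqcr11), and the nuclear median of the Esrrb line to 0.22. Without a low-count filter, 1 mitochondrially encoded member (mt-Nd6) was called in the Esrrb line, and mt-Cytb and mt-Nd6 gained calls between Esrrb+Nanog and the Esrrb and Nanog-null lines, respectively.

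Leaving out each library in turn, the nuclear members called higher in the Esrrb line ranged from 41 to 52 and those called lower from 0 to 1, with 0 to 1 mitochondrially encoded calls and medians of 0.21 to 0.27 (nuclear) and -0.14 to 0.026 (mitochondrially encoded). Between the Esrrb+Nanog and Esrrb lines, 0 to 2 nuclear members were higher, 1 to 2 lower, and 1 to 3 mitochondrially encoded members were called, with medians of -0.026 to 0.028 and -0.22 to -0.062. Between the Esrrb+Nanog and Nanog-null lines, the ranges were 41 to 53, 2 to 4 and 2 to 5, with medians of 0.22 to 0.26 and -0.27 to -0.14. Without replicate 2 of the Esrrb line, Ndufc2 lost its call in that line, mt-Nd6 was called there, 2 nuclear members were lower between the Esrrb+Nanog and Esrrb lines, and 4 between the Esrrb+Nanog and Nanog-null lines. Without replicate 1 of the Esrrb+Nanog line, 2 nuclear members were higher than in the Esrrb line. Without its replicate 2, 1 and 2 mitochondrially encoded members were called in the comparisons with the Esrrb and Nanog-null lines.

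The labels give the lines shared replicate numbers, but nothing says that a number marks a shared culture or day. Deviations of same-numbered libraries from their line means correlated between -0.0248 and 0.278 over 16198 genes, and not every library correlated best with its own number, so pairing was not established. With the replicate number as a block, 50 nuclear members were higher in the Esrrb line and 51 in the Esrrb+Nanog line, each against Nanog-null, all of them also called without it, and 1 mitochondrially encoded member (mt-Nd6) was called in the Esrrb line. Further calls gained with the block were mt-Cytb, higher in Esrrb+Nanog than in Esrrb, and mt-Nd6, lower in Esrrb+Nanog than in Nanog-null. The block moved the calls over all genes from 7849 to 7997 in the Esrrb line and from 2135 to 2381 between the Esrrb+Nanog and Esrrb lines.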
